A study of Mus musculus with 30 samples.

Results

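The genes described here are 35 subunits and relatives of chromatin remodelling complexes: BAF and its PBAF form, NuRD, the CHD proteins Chd1, Chd7 and Chd8, the remodeller Ino80, and the histone chaperone CAF-1. They were chosen by name, and all 35 were found once each among the 35275 entries of a table of expression levels. The levels came from bulk RNA-seq of mouse cells passing through chemical reprogramming, in which fibroblasts are turned into pluripotent cells by small molecules through an intermediate that resembles extraembryonic endoderm (XEN). The series holds 30 samples, of which 14 are the bulk RNA-seq libraries used here; its other 12 single-cell and 4 bisulfite samples were not used here. Each group was 1 library, so no difference below has a replicate error or a test.

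The starting cells were mouse embryonic fibroblasts (MEFs) from E13.5 embryos of the strain C57BL/6J-Tg(GOFGFP)11Imeg/RbrcxICR. The XEN-like library came from purified lines kept in stage I medium, which the labels call VC6TFAE, with 20 ng/ml bFGF, and the strain of this and every later library from those MEFs is written C57BL/6J-Tg(GOFGFP)11Imeg/_brcxICR. In the reprogramming protocol cells were replated on day 12, moved to stage II medium on day 16 and to stage III medium on day 28. At stage II day 12 there were 3 libraries of this strain: cells sorted as OG+PDGFRAlow/-PECAM- (called OG+ here), unsorted cells of the N2B27 condition, replated on mitomycin C-treated MEF feeders, and unsorted cells of the FBS/KSR condition, replated at a higher density. A further pair at stage II day 12, of the strain 129S6/SvEvTac x C57BL/6Ncr, came from XEN-like cells derived from ESCs with a pZscan4c-Emerald reporter and was sorted into reporter-positive (Zscan4c+) and reporter-negative (Zscan4c-) cells. Stage III was sampled on day 4 with and without Opt. VPA treatment (VPA is valproic acid, an inhibitor of histone deacetylases), and on days 6, 15 and 21. The chemically induced pluripotent stem cells (CiPSCs) were 1 line, and the embryonic stem cells (ESCs) came from an E3.5 embryo of ICR x ICR. Both pluripotent lines grew on MEF feeders with CHIR99021, PD0325901 and LIF.

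Chromatin remodellers use ATP to slide, evict or exchange nucleosomes. BAF complexes are built on one of a pair of alternative ATPases, Smarca4 (BRG1) or Smarca2 (BRM), and exchange other subunits between paralogs; the form described in mouse embryonic stem cells, esBAF, is known to carry Smarca4, Arid1a, Smarcc1 and Actl6a and to lack Smarca2 and Smarcc2. NuRD joins a CHD-type ATPase to histone deacetylases and an Mbd2 or Mbd3 subunit, and Mbd3 has been studied as both a barrier and an aid to reprogramming. CAF-1 deposits histones H3 and H4 behind the replication fork and is known as a safeguard of cell identity in transcription-factor reprogramming.

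Levels are in FPKM, reads scaled to gene length and to the reads of the library. The values of each library were whole multiples of what 1 read is worth, which gave totals of 6601290 to 15294927 reads a library and the number of reads behind each level. The 95% intervals below come from these reads (exact binomial for a ratio) and cover counting error only, neither biological nor library spread. The labelled cell types matched their markers. In CiPSCs and ESCs 8 pluripotency markers summed to 5922 and 5983 FPKM, against 71.1 FPKM in MEFs. The sum of 9 fibroblast markers was 5.09 FPKM in CiPSCs and 19306 FPKM in MEFs, and that of 8 extraembryonic endoderm markers was 2620.3 FPKM in XEN-like cells and 118 FPKM in MEFs. The Zscan4c reporter pair stood apart from the other libraries: mitochondrial reads took 7.37% of the Zscan4c+ library and 14.1% of the Zscan4c- library, against 1.25 to 4.67% elsewhere, and their part in the values below was not tested.

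Of the 35 genes, 32 were at 1 FPKM or more in all 14 libraries. The exceptions were Actl6b, the neuron-restricted actin-like subunit, with at most 6 reads (0.796 FPKM, in OG+ cells) and 0 reads in 9 libraries, Dpf3, with 0 to 38 reads, and Chd7, which was under 1 FPKM only in MEFs. A count of 0 reads for Actl6b allowed up to 0.384 FPKM in MEFs and 0.327 FPKM in CiPSCs. The ratio of the highest to the lowest library had a median of 3.89 among the genes and was under 4 for 17 of them. It was 10 or more, or taken against a zero, for 6: Smarcd3 (92.2), Chd7 (47.9), Smarca2 (27.1), Chd3 (18.1), Dpf3 and Actl6b. The narrowest ranges belonged to Smarcb1 (1.84), a core subunit of BAF and PBAF, Chd8 (2.09), Smarcd2 (2.18) and Chd4 (2.25). The lowest level of 15 genes was in Zscan4c+ cells and that of 5 in Zscan4c- cells. Without that pair 23 genes had a range under 4 and the same number, 6, had one of 10 or more or a zero.

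**Figure D1:**
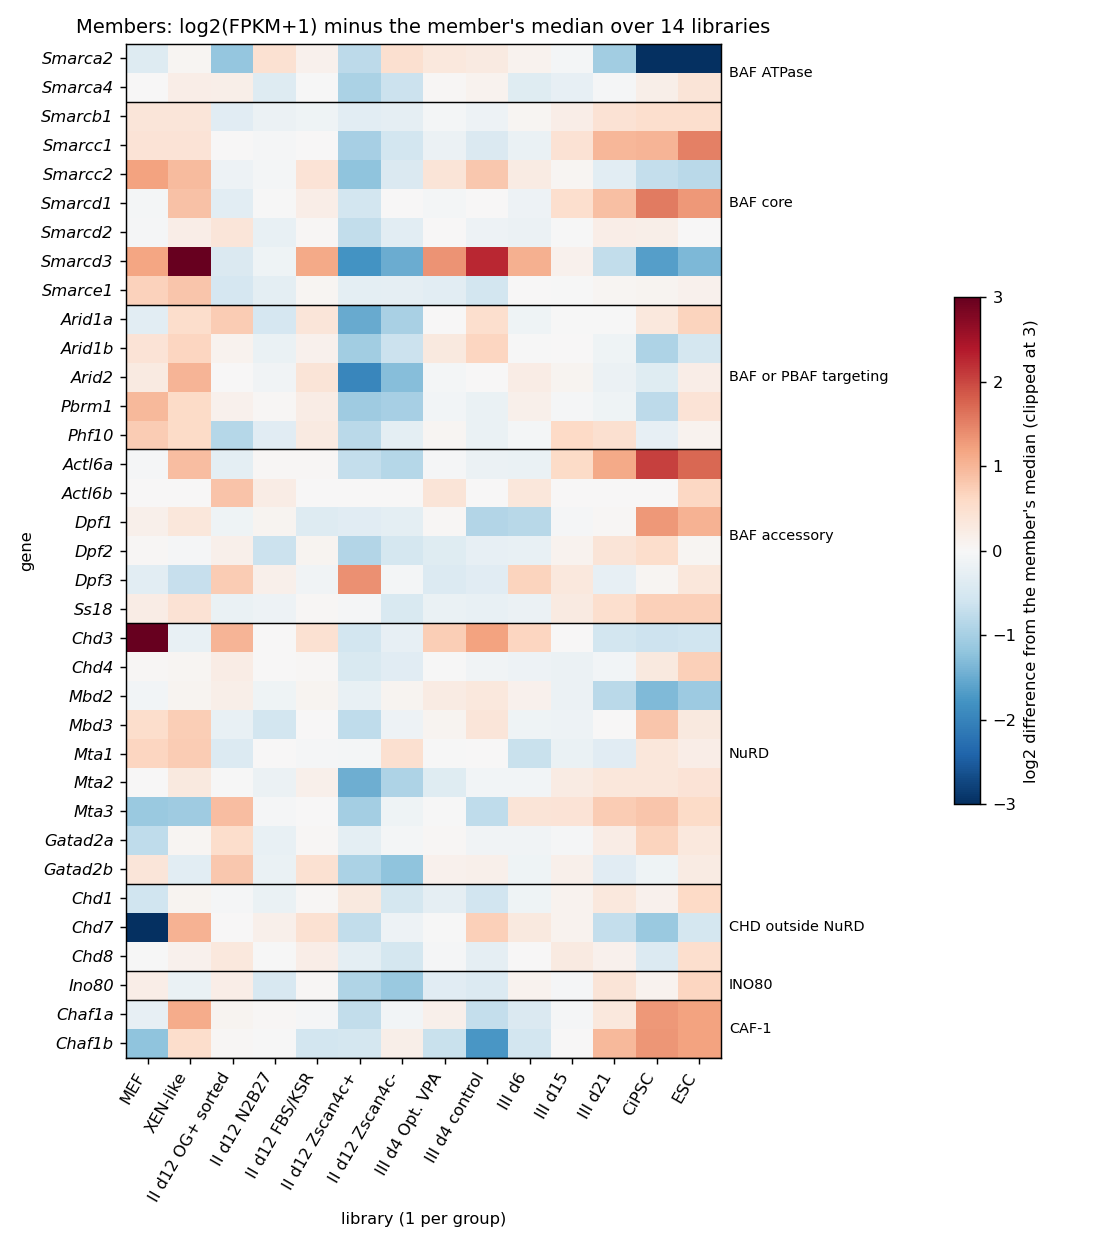
Levels of the 35 genes (rows, grouped by complex) in the 14 bulk libraries (columns), as log2(FPKM+1) minus the median of the gene over the libraries, red for higher and blue for lower. Smarcb1 and Chd4 are pale across the row, Smarcd3 is red in XEN-like cells (188 FPKM), Chd3 is red in MEFs (203 FPKM), and Smarca2 is blue in CiPSCs and ESCs (3.01 and 4.25 FPKM).

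Of the alternative ATPases of BAF, Smarca2 was lowest in the pluripotent lines, whereas the level of Smarca4 there was close to that in MEFs and XEN-like cells. Smarca2 had 43.8 FPKM in MEFs, 60.2 in XEN-like cells, 79.7 at stage II day 12 in N2B27, 62.7, 55.4 and 27.4 at stage III days 6, 15 and 21, 3.01 in CiPSCs and 4.25 in ESCs. The level of Smarca2 was thus above that of MEFs in these libraries up to day 15, below it at day 21, and lowest in both pluripotent lines. Among the remaining intermediates Smarca2 stood at 25.2 FPKM in OG+ cells, 63.4 in FBS/KSR cells, 33.0 in Zscan4c+ cells, 81.4 in Zscan4c- cells, and 71.7 with and 70.2 without Opt. VPA. Smarca2 in CiPSCs was 14.6-fold lower than in MEFs (interval 11.3 to 19.0) and 9.10-fold lower than at stage III day 21 (7.01 to 12.0), and in XEN-like cells it was 14.2-fold higher than in ESCs (11.2 to 18.2). Both sorts at stage II had less Smarca2 than their counterparts. OG+ cells were 3.16-fold lower than unsorted N2B27 cells (2.84 to 3.53), which had been replated on MEF feeders. Fibroblast markers summed to 35.8 FPKM in OG+ cells and 108 FPKM in N2B27 cells. Extraembryonic endoderm markers summed to 567 FPKM in OG+ cells and 789.6 FPKM in N2B27 cells. The endoderm list includes Pdgfra, and the OG+ cells were sorted as PDGFRAlow/-, so the endoderm sum is not independent of that sort. Zscan4c+ cells were 2.46-fold lower than Zscan4c- cells (2.21 to 2.75), with sums of extraembryonic endoderm markers of 309.6 FPKM in Zscan4c+ cells and 564 FPKM in Zscan4c- cells. The part of these markers in the Smarca2 levels was not tested. In these bulk libraries fewer cells of a type and less RNA per cell cannot be told apart. Fibroblasts, which as MEFs contain Smarca2, are also the feeders of the CiPSC and ESC cultures, where fibroblast markers summed to 5.09 and 6.96 FPKM with Lum and Dcn at 0 in both.

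Smarca4 varied far less, between 21.1 FPKM in Zscan4c+ cells and 55.0 FPKM in ESCs, and was 47.3 FPKM in CiPSCs and 42.1 FPKM in MEFs. The ratio of Smarca4 to Smarca2 was 0.960 in MEFs (0.886 to 1.04), 0.799 in XEN-like cells, 0.396 at stage II in N2B27, 0.518, 0.625 and 1.47 at stage III days 6, 15 and 21, 15.7 in CiPSCs (12.3 to 20.4) and 12.9 in ESCs (10.3 to 16.5). The ratio was thus highest in both pluripotent lines, and higher at day 21 than in the preceding libraries of this course. OG+ cells were highest at stage II, with a ratio of 1.87 (1.69 to 2.08) against 0.396 (0.366 to 0.429) in unsorted N2B27 cells. Within the reporter pair the ratio was 0.638 (0.569 to 0.717) in Zscan4c+ cells and 0.326 (0.301 to 0.352) in Zscan4c- cells. The gene lengths behind the deposited values were 1910 bases for Smarca2 and 5484 bases for Smarca4, and the first is shorter than the full-length mRNA. The size of a paralog ratio, and whether it lies above or below 1, depends on such lengths, whereas its change between libraries does not. With no length scaling, the ratio of Smarca4 to Smarca2 reads was 2.76 in MEFs, 1.14 in N2B27 cells and 45.2 in CiPSCs, and it was under 1 only in Zscan4c- cells, at 0.935.

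The promoters of Smarca2 and of Smarcd3, the core subunit with the widest range, are shown because these are the BAF genes with the widest ranges among those measured in every library. They are RefSeq promoters on GRCm38.p6 (the same coordinates as mm10), running from 250 bases before to 50 bases after an annotated start and written 5′ to 3′ on the strand of the gene. Smarca2 lies at chr19:26604910-26605209 on the plus strand, and Smarcd3 at chr5:24601953-24602252 on the minus strand, where the window starts inside the annotated span of the gene. Capitals mark matches to GGGCGG, the GC box, on either strand.
Smarca2: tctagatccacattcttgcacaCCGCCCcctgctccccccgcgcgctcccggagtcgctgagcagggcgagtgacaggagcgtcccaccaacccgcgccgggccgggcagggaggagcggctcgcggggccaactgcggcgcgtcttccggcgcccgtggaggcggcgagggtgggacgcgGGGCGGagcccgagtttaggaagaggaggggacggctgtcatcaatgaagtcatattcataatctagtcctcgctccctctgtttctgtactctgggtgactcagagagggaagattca
Smarcd3: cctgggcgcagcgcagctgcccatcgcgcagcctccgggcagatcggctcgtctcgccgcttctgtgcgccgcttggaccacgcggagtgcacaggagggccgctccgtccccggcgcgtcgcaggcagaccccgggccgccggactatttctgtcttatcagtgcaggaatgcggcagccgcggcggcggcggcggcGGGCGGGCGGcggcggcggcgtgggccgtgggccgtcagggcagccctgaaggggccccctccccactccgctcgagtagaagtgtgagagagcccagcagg

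Neither window held CCAAT (the CCAAT box), TTTNNCGC (an E2F-type motif) or TATAAA (the TATA box) on either strand. Smarca2 had 2 GC boxes and 29 CpG dinucleotides, and Smarcd3 had 2 GC boxes, which overlap, and 40 CpG dinucleotides. Of the 27 genes with a promoter in the table, 26 had a GC box, against 35.7% of all 32851 promoters of this length. A gene counted here if any of its windows matched, whereas the share of all promoters counts each window. That share was also not limited to expressed genes, so the numbers are not a measure of enrichment. A CCAAT box was present in 11 of the 27, an E2F-type motif in 2 and a TATA box in 2, against 37.4%, 5.17% and 13.6% of all promoters. A match is a description of letters only. The GC box was thus common to genes whose levels took very different courses, such as Smarca2 and Chaf1b.

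Among the core subunits of BAF, the balance between paralogs differed along the series while Smarcb1 and Smarce1 kept within narrower ranges. Smarcb1 lay between 19.4 and 35.6 FPKM and Smarce1, an HMG-domain subunit, between 43.8 FPKM in stage III day 4 control cells and 115 FPKM in XEN-like cells. Smarcc2 (BAF170) had 39.5 FPKM in MEFs, 33.0 in XEN-like cells, 15.9 at stage II in N2B27, 20.0, 17.5 and 13.2 at stage III days 6, 15 and 21, 9.81 in CiPSCs and 9.10 in ESCs. Its partner Smarcc1 (BAF155), a scaffold subunit of esBAF, had 39.8, 39.9, 29.1, 25.8, 40.3, 59.8, 61.2 and 86.0 FPKM in the same libraries. Smarcc2 was 4.03-fold lower in CiPSCs than in MEFs, whereas Smarcc1 was 1.54-fold higher (1.45 to 1.64), short of 2-fold. The lowest Smarcc2 level of the 14 libraries was outside the pluripotent lines, at 6.62 FPKM in Zscan4c+ cells. The ratio of Smarcc1 to Smarcc2 was 1.01 in MEFs, 2.30 at stage III day 15, 4.54 at day 21 (4.12 to 5.02), 6.24 in CiPSCs (5.69 to 6.86) and 9.45 in ESCs (8.51 to 10.5). The lowest ratio of Smarcc1 to Smarcc2, 0.729, was in stage III day 4 control cells, against 1.18 in the Opt. VPA cells of the same day.

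Smarcd3 (BAF60c), known for its role in heart and muscle development, was highest in XEN-like cells, at 188 FPKM. Its level was 22.7 FPKM in MEFs, 8.67 at stage II in N2B27, 20.9, 10.4 and 5.33 at stage III days 6, 15 and 21, 2.35 in CiPSCs and 3.11 in ESCs. The other intermediates ranged between 2.04 FPKM in Zscan4c+ cells and 49.0 FPKM in stage III day 4 control cells. XEN-like cells exceeded MEFs 8.26-fold (7.24 to 9.46) and ESCs 60.3-fold (42.8 to 87.9). The stage II libraries were lower than XEN-like cells, by 21.7-fold in N2B27 (17.2 to 27.7) and by 8.52-fold in FBS/KSR. Opt. VPA cells had 25.9 FPKM, against 49.0 FPKM in control cells, a 1.89-fold lower level (1.61 to 2.23). Extraembryonic endoderm markers moved the same way in these comparisons. Their sum was 789.6 FPKM in N2B27 cells and 2620.3 FPKM in XEN-like cells, and 1518 FPKM in Opt. VPA cells and 2144 FPKM in control cells. Between MEFs and N2B27 cells the markers went the other way from Smarcd3, with a sum of 118 FPKM in MEFs. The part of these markers in the Smarcd3 levels was not tested. The coding gene Chpf2 overlaps the Smarcd3 span, and it had 19.7 FPKM in XEN-like cells and 23.7 FPKM in MEFs, with no peak in the XEN-like library, and 0.956 FPKM in CiPSCs and 1.19 FPKM in ESCs, low as Smarcd3 was. Smarcd1 (BAF60a) had 26.7 FPKM in XEN-like cells, 13.8 at stage II in N2B27, 12.6, 20.1 and 26.9 at stage III days 6, 15 and 21, 43.3 in CiPSCs and 35.8 in ESCs, and its level in CiPSCs was 3.21-fold above that in MEFs. The ratio of Smarcd1 to Smarcd3 was 0.594 in MEFs, 0.142 in XEN-like cells, 1.60 in N2B27, 5.05 at day 21, 18.5 in CiPSCs (12.9 to 27.3) and 11.5 in ESCs (8.14 to 16.8). Smarcd2, the third paralog, stayed between 41.9 and 91.3 FPKM.

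**Figure D2:**
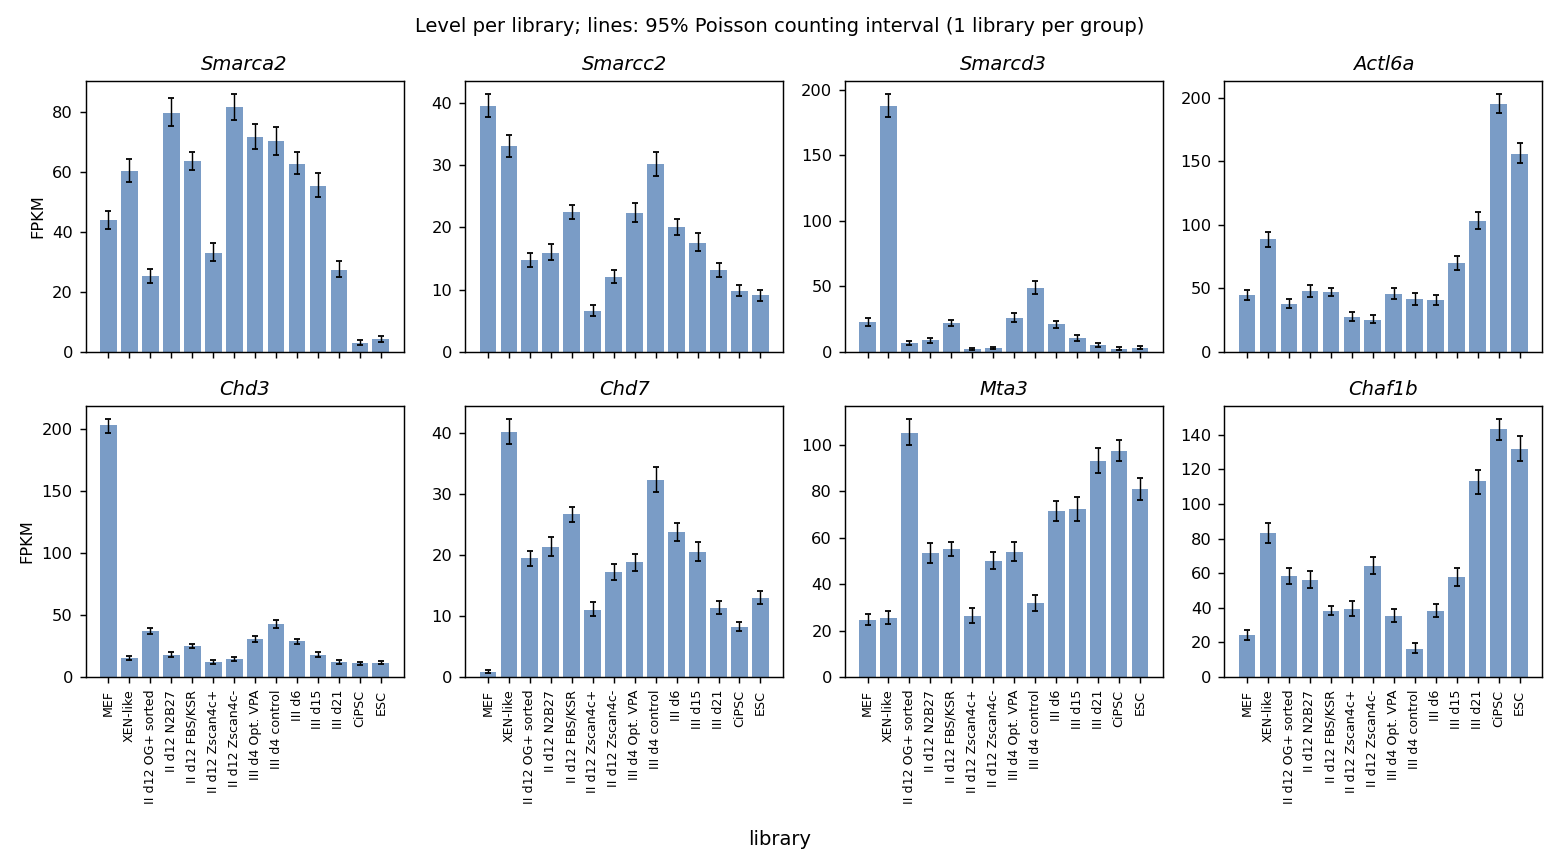
FPKM of 8 genes with wide ranges in each of the 14 libraries (1 bar per library, lines show the 95% Poisson counting interval). Smarca2 and Smarcc2 are low in the CiPSC and ESC bars, though Smarcc2 is lowest in Zscan4c+ cells at 6.62 FPKM. Actl6a and Chaf1b are highest in the CiPSC and ESC bars, at 195 and 143 FPKM in CiPSCs. Smarcd3 stands alone in XEN-like cells, Chd3 stands alone in MEFs, and Chd7 is near 0 only in MEFs.

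The targeting subunits decide which BAF form a complex is. Arid1a, the subunit of canonical BAF, had 31.9 FPKM in MEFs, 57.7 in XEN-like cells, 27.9 at stage II in N2B27, 36.0, 39.4 and 39.5 at stage III days 6, 15 and 21, 49.4 in CiPSCs and 64.1 in ESCs. The alternative subunit Arid1b had 17.8, 21.1, 11.4, 13.1, 13.4, 12.1, 6.54 and 8.96 FPKM in the same libraries. Arid1b was lower in both pluripotent lines than in every earlier library outside the Zscan4c reporter pair, and the ratio of Arid1a to Arid1b was 7.55 in CiPSCs (6.78 to 8.43) and 7.15 in ESCs (6.45 to 7.94), against 1.79 in MEFs (1.65 to 1.95). OG+ cells had 68.3 FPKM of Arid1a, the highest of the 14 libraries and 2.45-fold above the unsorted N2B27 cells (2.28 to 2.63).

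PBAF carries Arid2 in place of Arid1a or Arid1b, and it also carries Pbrm1 and Phf10. Pbrm1, the polybromo subunit, was highest in MEFs at 33.2 FPKM and stood at 9.03 FPKM in CiPSCs and 21.9 FPKM in ESCs. Pbrm1 was the only gene of the list past 2-fold between the pluripotent lines, 2.43-fold lower in CiPSCs than in ESCs (2.16 to 2.74). Related genes outside the list were also lower in CiPSCs, namely Ino80d (3.09-fold), Atrx (2.68-fold), Ubn2 (2.65-fold) and Rsf1 (2.52-fold). Others were higher, at most 1.96-fold for Znhit1. Of all genes, 4.77% were at least 2-fold lower and 1.79% higher. Arid2 ranged between 3.87 FPKM in Zscan4c+ cells and 37.7 FPKM in XEN-like cells, and its level in N2B27 cells, 16.7 FPKM, was 2.26-fold lower than in XEN-like cells. Phf10, a reader with paired PHD fingers, had 17.9 FPKM in CiPSCs and 37.0 FPKM in MEFs, a 2.07-fold lower level. Pbrm1 and Phf10 each overlap a coding gene (Smim4 and 1600012H06Rik), and no source used here says whether the counting used strand.

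The accessory subunits include the actin-like protein Actl6a (BAF53a), found in BAF of dividing and stem cells. Actl6a had 45.0 FPKM in MEFs, 88.6 in XEN-like cells, 48.0 at stage II in N2B27, 40.6, 69.8 and 103 at stage III days 6, 15 and 21, 195 in CiPSCs and 156 in ESCs. The order from stage III day 6 to day 21 was upward, and CiPSCs were 4.35-fold above MEFs (3.95 to 4.79) and 1.89-fold above day 21 (1.76 to 2.04). A list of 25 replication and cell cycle genes, described below, had a mean log2(FPKM+1) of 5.08, 5.71 and 6.42 on days 6, 15 and 21. The mean was 5.08 in MEFs and 7.09 in CiPSCs, and the part of proliferation in the Actl6a levels was not tested. Of the double PHD finger subunits, Dpf2, the widely expressed one, stayed between 39.7 and 108 FPKM. Dpf1, best known from neural BAF, had 14.3 FPKM in CiPSCs, 2.64-fold above the 5.41 FPKM of day 21 (1.98 to 3.55). Dpf3 had 38 reads in Zscan4c+ cells and 8 reads in Zscan4c- cells, a 5.65-fold difference whose counting interval starts at 2.60. Ss18, the subunit fused to SSX in synovial sarcoma, lay between 16.5 FPKM in Zscan4c- cells and 38.4 FPKM in ESCs.

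**Figure D3:**
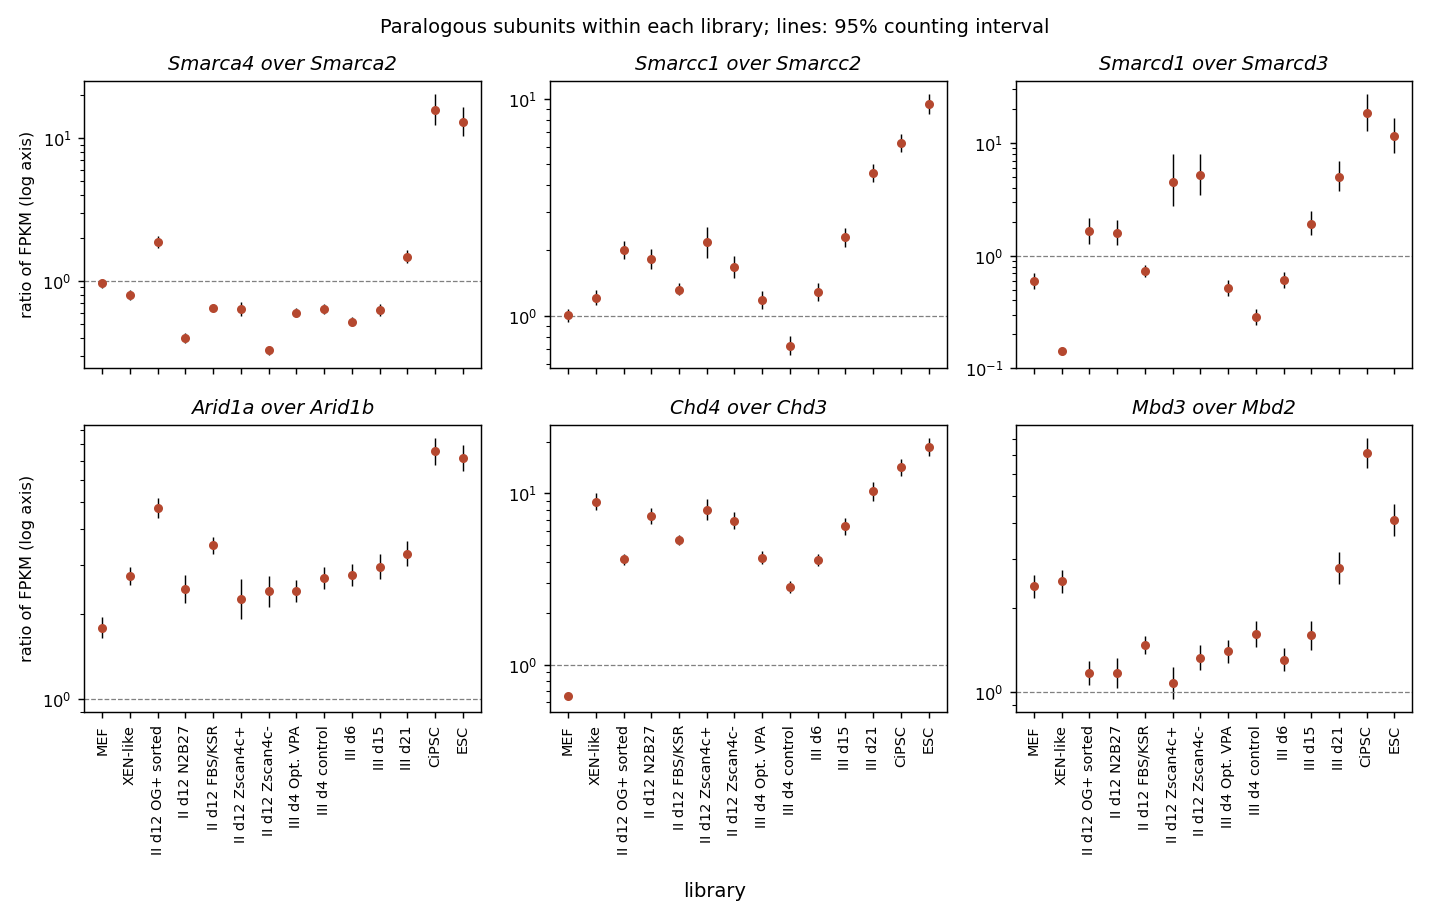
Ratio of the FPKM of 2 paralogs within each of the 14 libraries, on a log axis, for 6 pairs with 95% counting intervals. The BAF pairs, Smarca4 to Smarca2 (15.7 in CiPSCs), Smarcc1 to Smarcc2 (6.24) and Smarcd1 to Smarcd3 (18.5), are highest in the 2 pluripotent lines, whereas Chd4 to Chd3 is low only in MEFs at 0.654.

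In NuRD the ATPase Chd4 was nearly even, between 95.5 FPKM in Zscan4c+ cells and 215 FPKM in ESCs, and its paralog Chd3 was not. Chd3 had 203 FPKM in MEFs, 15.3 in XEN-like cells, 17.9 at stage II in N2B27, 28.7, 17.9 and 12.0 at stage III days 6, 15 and 21, 11.2 in CiPSCs and 11.5 in ESCs. The other intermediates had 11.9 to 42.9 FPKM of Chd3, with the top of this range in stage III day 4 control cells. Chd3 was 13.3-fold lower in XEN-like cells than in MEFs (11.9 to 14.9) and 18.1-fold lower in CiPSCs than in MEFs (16.2 to 20.3). The ratio of Chd4 to Chd3 was 8.92 in XEN-like cells (7.97 to 10.0), against 0.654 in MEFs (0.627 to 0.682), and it was 14.2 in CiPSCs and 18.7 in ESCs. The ratio was thus lowest in MEFs. Chd3 therefore parted from Smarca2 in time, since Smarca2 was 60.2 FPKM in XEN-like cells and 43.8 FPKM in MEFs. Fibroblast markers were lower in the same comparison, with sums of 105 FPKM in XEN-like cells and 19306 FPKM in MEFs, and their part in the Chd3 level was not tested.

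The MBD pair of NuRD differed most in the pluripotent lines. Mbd2, which binds methylated DNA, had 61.6 FPKM in MEFs, 69.2 in XEN-like cells, 59.0 at stage II in N2B27, 71.7, 57.7 and 36.8 at stage III days 6, 15 and 21, 25.4 in CiPSCs and 30.3 in ESCs. Mbd3, which mostly lacks that binding, had 147, 172, 69.1, 93.6, 92.4, 102, 181 and 125 FPKM in the same libraries. Mbd3 was 2.49-fold lower in N2B27 cells than in XEN-like cells, and Mbd2 was 2.42-fold lower in CiPSCs than in MEFs. The ratio of Mbd3 to Mbd2 was 7.13 in CiPSCs (6.33 to 8.07) and 4.12 in ESCs (3.62 to 4.69), against 2.39 in MEFs, 2.49 in XEN-like cells and 1.17 in N2B27 cells.

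Of the metastasis-associated scaffold subunits, Mta3 had 24.7 FPKM in MEFs, 25.4 in XEN-like cells, 53.3 at stage II in N2B27, 71.5, 72.1 and 93.0 at stage III days 6, 15 and 21, 97.4 in CiPSCs and 80.9 in ESCs. Mta3 was the one NuRD gene of this list at least 2-fold higher in both unsorted stage II libraries than in XEN-like cells, 2.10-fold in N2B27 (1.83 to 2.40) and 2.17-fold in FBS/KSR. OG+ cells had the highest Mta3 of the 14 libraries, 105 FPKM. The ratio of Mta2 to Mta3 was 1.97 in CiPSCs and 2.50 in ESCs, against 6.13 in MEFs. Mta1 lay between 28.1 FPKM at stage III day 6 and 76.3 FPKM in XEN-like cells. Gatad2a (p66-alpha), which joins the MBD subunit to Chd4, had 48.2 FPKM in CiPSCs, 2.75-fold above the 17.5 FPKM of MEFs, and Gatad2b (p66-beta) was highest in OG+ cells at 18.5 FPKM, 2.14-fold above unsorted N2B27 cells.

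Chd7, the CHD ATPase whose gene is mutated in CHARGE syndrome, was highest in XEN-like cells and nearly absent from MEFs. Chd7 had 40.1 FPKM in XEN-like cells, against 0.837 FPKM in MEFs, a 47.9-fold difference (34.6 to 68.3). From stage II on it had 21.3 FPKM in N2B27, 23.7, 20.5 and 11.3 at stage III days 6, 15 and 21, 8.25 in CiPSCs and 13.0 in ESCs. Its level in both pluripotent lines was thus below that of the XEN-like cells, 3.09-fold in the case of ESCs, and still 9.86-fold above MEFs in CiPSCs (7.04 to 14.2). Chd1, which in mouse ESCs is known for keeping chromatin open, ranged only between 29.6 FPKM in MEFs and 68.7 FPKM in ESCs. Chd8 had 27.6 FPKM in CiPSCs and 53.7 FPKM in ESCs, a 1.95-fold lower level (1.78 to 2.13). Ino80, the ATPase of the INO80 complex, lay between 4.87 FPKM in Zscan4c- cells and 18.9 FPKM in ESCs, and both libraries of the reporter pair were at the bottom of its order.

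The CAF-1 genes had 2 peaks, in XEN-like cells and in the pluripotent lines. Chaf1a (p150), the large subunit, had 13.9 FPKM in MEFs, 37.2 in XEN-like cells, 16.9 at stage II in N2B27, 12.0, 16.3 and 20.8 at stage III days 6, 15 and 21, 42.4 in CiPSCs and 39.5 in ESCs. Chaf1b (p60) had 24.1, 83.1, 56.3, 38.3, 57.6, 113, 143 and 132 FPKM in the same libraries. The Chaf1a span overlaps the coding gene Ubxn6. Both CAF-1 genes were lowest or near lowest in stage III day 4 control cells, where Chaf1a had 9.80 and Chaf1b 16.4 FPKM. XEN-like cells exceeded MEFs 2.68-fold for Chaf1a (2.39 to 3.00) and 3.45-fold for Chaf1b (3.01 to 3.96). CiPSCs exceeded MEFs 3.06-fold for Chaf1a and 5.93-fold for Chaf1b (5.23 to 6.75). Opt. VPA cells had 35.2 FPKM of Chaf1b, against 16.4 FPKM in control cells, a 2.15-fold difference (1.76 to 2.66). Chaf1a pointed the same way there, with 18.5 FPKM in Opt. VPA cells and 9.80 FPKM in control cells, 1.88-fold (1.60 to 2.22).

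The RefSeq promoters of both CAF-1 genes are shown. Both genes were at least 2-fold higher in XEN-like cells and in CiPSCs than in MEFs. Their courses were not the same, since against XEN-like cells stage III day 21 was lower for Chaf1a and higher for Chaf1b. Chaf1a lies at chr17:56040166-56040465 and Chaf1b at chr16:93883651-93883950, both GRCm38.p6 and plus strand, and capitals mark GC boxes (GGGCGG or its reverse complement) and, in Chaf1a, a CCAAT box.
Chaf1a: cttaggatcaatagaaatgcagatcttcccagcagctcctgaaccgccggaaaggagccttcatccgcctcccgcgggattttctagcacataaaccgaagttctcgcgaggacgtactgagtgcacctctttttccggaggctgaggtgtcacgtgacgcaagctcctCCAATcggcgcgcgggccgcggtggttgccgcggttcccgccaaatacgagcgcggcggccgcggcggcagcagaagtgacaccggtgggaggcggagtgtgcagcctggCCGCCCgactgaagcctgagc
Chaf1b: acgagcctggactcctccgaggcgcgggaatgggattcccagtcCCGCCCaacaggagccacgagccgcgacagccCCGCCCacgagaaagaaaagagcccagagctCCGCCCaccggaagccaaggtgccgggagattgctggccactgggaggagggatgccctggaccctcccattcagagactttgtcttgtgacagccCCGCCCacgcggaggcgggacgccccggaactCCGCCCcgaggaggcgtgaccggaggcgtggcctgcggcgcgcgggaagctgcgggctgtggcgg
Chaf1a had 1 GC box and 1 CCAAT box and Chaf1b had 5 GC boxes, with 32 and 30 CpG dinucleotides. Neither window held TTTNNCGC or TATAAA in these letters. Sequences that differ from these patterns by a letter were not searched for, so other forms of an E2F-type motif may be present.

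Genes of DNA replication and the cell cycle, a list of 25 that included Pcna, Top2a and the Mcm helicase genes, varied alongside CAF-1. Their mean log2(FPKM+1) was 5.08 in MEFs, 6.44 in XEN-like cells, 5.46 in N2B27, 5.08, 5.71 and 6.42 at stage III days 6, 15 and 21, 7.09 in CiPSCs and 7.07 in ESCs. In XEN-like cells 20 of the 25 were at least 2-fold higher than in MEFs and none lower, where 18.8% of all genes were higher and 17.5% lower. In Opt. VPA cells 9 of the 24 measured were at least 2-fold higher than in control cells and none lower, where 5.77% of all genes were higher and 3.28% lower, and the mean was 5.09 in Opt. VPA cells and 4.22 in control cells. The part of proliferation in the CAF-1 levels was not tested. OG+ cells departed from this order, since Chaf1b was 58.2 FPKM there and 56.3 FPKM in unsorted N2B27 cells. The mean of the list was 5.02 in OG+ cells and 5.46 in N2B27 cells. Zscan4c- cells also departed, with Chaf1a and Chaf1b summing to 79.7 FPKM at a mean of 5.28. Their sum in N2B27 cells was 73.2 FPKM. MEFs and stage III day 6 cells shared the mean of 5.08, with CAF-1 sums of 38.0 and 50.3 FPKM.

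**Figure D4:**
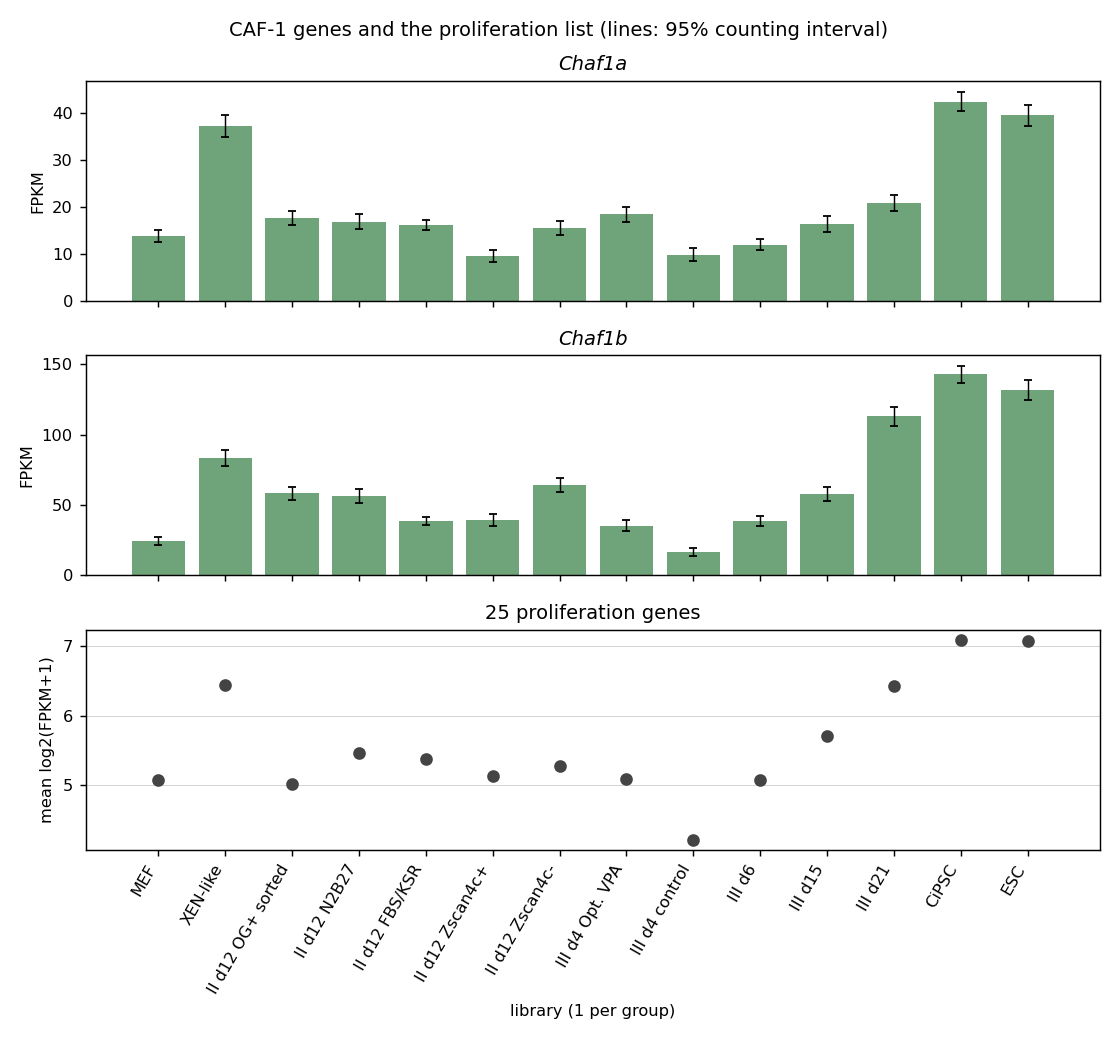
FPKM of Chaf1a (top) and Chaf1b (middle) with 95% Poisson counting intervals, and the mean log2(FPKM+1) of 25 proliferation genes (bottom), in each of the 14 libraries. All 3 panels are high in XEN-like cells, CiPSCs and ESCs. Chaf1b and the list (6.42) are also high at stage III day 21, where Chaf1a is lower than in XEN-like cells. The stage III day 4 control library is lowest for Chaf1b (16.4 FPKM) and for the list (4.22).

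For each step of the protocol, genes that reached 1 FPKM in at least 1 of the libraries compared were measured, and those whose log2(FPKM+1) differed by at least 2-fold were called. In XEN-like cells against MEFs, 4 of 33 measured genes were higher (Smarcd3, Chd7, Chaf1a and Chaf1b) and 1 was lower (Chd3), beside 18.8% of all genes higher and 17.5% lower. Their median log2 difference was 0.19, that of all genes 0.21. In N2B27 cells against XEN-like cells 1 gene was higher (Mta3) and 7 of 33 were lower (Smarcc2, Smarcd3, Smarce1, Arid1a, Arid2, Mbd3 and Chaf1a), beside 17.7% of all genes higher and 8.56% lower. The median was -0.56 for these genes and 0.05 for all genes. In FBS/KSR cells against XEN-like cells 1 was higher (Mta3) and 3 were lower (Smarcd3, Chaf1a and Chaf1b), beside 16.1% and 10.3% of all genes. Proliferation genes were also lower at stage II, 13 of 25 in N2B27 cells and 14 of 25 in FBS/KSR cells, with none higher, and their part in these counts was not tested. In N2B27 cells against FBS/KSR cells Smarcd3 was the only gene of 33 called, 2.54-fold lower (1.98 to 3.30), beside 10.7% of all genes higher and 7.30% lower.

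The sorted cells each had a short list. In OG+ cells against unsorted N2B27 cells, Arid1a, Chd3 and Gatad2b were higher and Smarca2 was lower, 3 and 1 of 34, beside 12.0% of all genes higher and 12.0% lower. Trophoblast markers summed to 767 FPKM in OG+ cells and 77.6 FPKM in unsorted N2B27 cells, with all 6 at 1 FPKM or more in both, and their part in these differences was not tested. In Zscan4c+ cells against Zscan4c- cells, Dpf3 was higher and Smarca2 lower, beside 8.37% of all genes higher and 5.15% lower, and a minimum of 5 FPKM ended the Dpf3 call. The median log2 difference was -0.34 for the remodelling genes and -0.04 for all genes in that pair. Markers of 2-cell-like cells summed to 5881 FPKM in Zscan4c+ cells and 177 FPKM in Zscan4c- cells. That list includes Zscan4c, the gene of the sorting reporter, and its relatives Zscan4d and Zscan4f. The difference in the sum thus follows from the sort and is not a separate reading of cell state.

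The steps of stage III each moved few of these genes. In Opt. VPA cells against control cells Chaf1b was higher and no gene lower, of 33, beside 5.77% of all genes higher and 3.28% lower. Median-of-ratios scaling ended the Chaf1b call and left Smarcd3 as the only call, lower in Opt. VPA cells. Day 6 cells against N2B27 cells had Smarcd3 alone, 2.41-fold higher (1.85 to 3.18), beside 9.99% of all genes higher and 8.98% lower. Against FBS/KSR cells, day 6 cells had none of 34, beside 6.05% and 2.01% of all genes. Day 15 against day 6 had none of 34, beside 6.23% of all genes higher and 5.02% lower, and day 21 against day 15 had none of 34, beside 1.72% and 7.50%. With median-of-ratios scaling Smarcd3 was called lower at day 15 and Chaf1b higher at day 21. Smarca2 and Chaf1b came close at day 21, with Smarca2 2.03-fold lower in FPKM (1.80 to 2.29) and Chaf1b 1.96-fold higher (1.76 to 2.19) than at day 15. The list of proliferation genes moved at the same step, with a median log2 difference of 0.77. Fibroblast markers summed to 398 FPKM at day 21 and 904 FPKM at day 15, and extraembryonic endoderm markers to 368 FPKM at day 21 and 869 FPKM at day 15. The part of these lists in the levels of Smarca2 and Chaf1b was not tested.

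**Figure D5:**
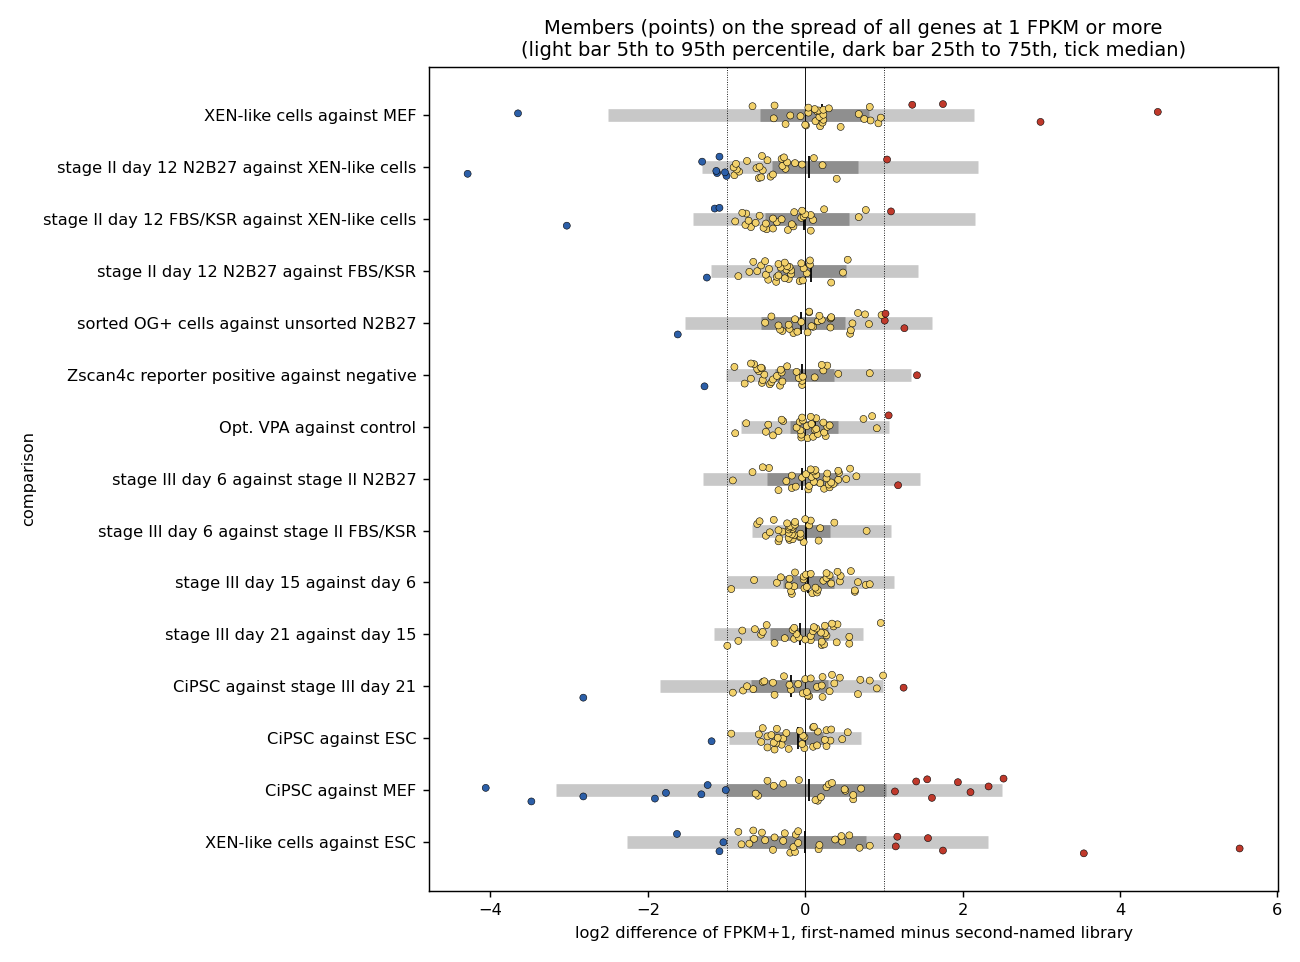
Log2 differences of FPKM+1 of the remodelling genes (points) in each of the 15 comparisons, first-named minus second-named library, red where at least 2-fold higher, blue where at least 2-fold lower and yellow otherwise. Grey bars give the 5th to 95th and 25th to 75th percentiles of all measured genes with their median; most points lie left of the all-gene median in N2B27 cells against XEN-like cells (medians -0.56 and 0.05) and none is past 2-fold in 3 stage III comparisons.

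The pluripotent lines closed the series. In CiPSCs against stage III day 21, Dpf1 was higher and Smarca2 lower, of 33, beside 4.88% of all genes higher and 15.4% lower. Median-of-ratios scaling gave 4 higher there, adding Actl6a, Mbd3 and Chaf1a. Fibroblast markers summed to 5.09 FPKM in CiPSCs and 398 FPKM at day 21, and extraembryonic endoderm markers to 9.12 FPKM in CiPSCs and 368 FPKM at day 21, and their part in the Smarca2 difference was not tested. In CiPSCs against ESCs, Pbrm1 was lower and none of 34 higher, beside 1.79% of all genes higher and 4.77% lower. CiPSCs against MEFs, the whole distance, had 8 of 33 higher and 8 lower, beside 25.8% and 25.3% of all genes, so both shares of the remodelling genes (24.2% each) were close to the background. The higher genes there were Smarcd1, Actl6a, Dpf1, Chd7, Mta3, Gatad2a, Chaf1a and Chaf1b, and the lower ones were Smarca2, Smarcc2, Smarcd3, Arid1b, Pbrm1, Phf10, Chd3 and Mbd2. In XEN-like cells against ESCs, Smarca2, Smarcc2, Smarcd3, Arid1b, Chd7 and Mbd2 were higher and Smarcc1, Dpf3 and Mta3 were lower, 6 and 3 of 34, beside 19.7% and 18.5% of all genes. Dpf3 had 0 reads in XEN-like cells and 16 in ESCs, at least 4.89-fold lower at a floor of 3 reads. Of the genes named for esBAF in the background above, Smarca2 and Smarcc2 were at least 2-fold lower in CiPSCs than in MEFs. Actl6a was at least 2-fold higher there, though it is found in BAF of dividing cells too and does not set esBAF apart. Smarca4, Smarcc1 and Arid1a differed by less. The comparisons that use the same CiPSC, MEF, XEN-like or ESC library share it and are not independent.

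Rescaling each library by the median ratio over genes shifted all genes by -0.27 (log2) in XEN-like cells against MEFs, -0.12 in Opt. VPA cells against control cells, 0.20 in CiPSCs against day 21 and 0.15 in CiPSCs against ESCs. The calls over all genes were then 1841 higher and 2829 lower in XEN-like cells against MEFs, where they had been 2518 and 2341. They were 634 and 537 in Opt. VPA cells against control cells, where they had been 783 and 445, 1009 and 1691 in CiPSCs against day 21, where they had been 658 and 2075, and 351 and 424 in CiPSCs against ESCs, where they had been 230 and 611. The median of the remodelling genes changed sign with it, to -0.05 in XEN-like cells against MEFs, to -0.09 (0.03 before) in Opt. VPA cells against control cells and to 0.01 (-0.14 before) in CiPSCs against ESCs. Paralog ratios, taken within a library, do not depend on this scaling.

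Partners of these genes outside the list were counted in the same way. In CiPSCs against MEFs the counts below stand beside 25.8% of all genes higher and 25.3% lower, and with so few genes in a list they are descriptions only. Of 6 other NuRD genes, 3 were at least 2-fold higher in CiPSCs than in MEFs and none lower. They were Hdac1, a deacetylase of the complex, with 781 FPKM in CiPSCs and 160.4 FPKM in MEFs, Rbbp4, a histone-binding subunit it shares with CAF-1, with 247 and 80.6 FPKM, and Chd5. Of 18 other INO80 and SRCAP genes, 6 were higher in CiPSCs than in MEFs and none lower, with the AAA+ ATPase gene Ruvbl2 at 281 FPKM in CiPSCs and 55.2 FPKM in MEFs. Of 13 histone chaperone and related genes, 7 were higher and 1 lower in the same comparison, and Nasp, which holds histones H3 and H4, had 463 FPKM in CiPSCs and 48.4 FPKM in MEFs. Of 10 other BAF genes none was higher and 3 were lower there, among them Bcl11b at 0.193 FPKM in CiPSCs and 10.3 FPKM in MEFs. Of 4 other CHD genes 1 was higher (Chd1l) and 2 were lower (Chd6 and Chd9), and of 10 ISWI genes 2 were higher and 1 lower, in CiPSCs than in MEFs. In XEN-like cells against MEFs, 4 of 10 ISWI genes were higher and 1 lower, beside 18.8% of all genes higher and 17.5% lower. The ISWI ATPase Smarca5 had 168 FPKM in XEN-like cells and 71.1 FPKM in MEFs, its paralog Smarca1 had 1.20 and 11.0 FPKM, and Cecr2, a partner of ISWI ATPases, had 30.0 FPKM in XEN-like cells and was at 0 in MEFs. At stage II in N2B27, Cdk2ap1, a small NuRD subunit, had 20.7 FPKM, against 89.1 FPKM in XEN-like cells. In Zscan4c+ cells the NuRD deacetylase Hdac2 had 136 FPKM, against 62.4 FPKM in Zscan4c- cells, 2.19-fold higher (2.01 to 2.37).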

How the data were processed

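Bulk RNA-seq libraries were made from total RNA with the NEBNext Ultra RNA kit, per the labels. The values are FPKM as deposited by the authors in one table, per the labels. The submitters' processing notes name the build mm10, Bowtie2, Bismark, FastQC and Cell Ranger 2.0.1, with no roles stated. For these FPKM values the aligner, counter, annotation and strand setting were not given in the sources used here.

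Read counts were recovered from the steps of the FPKM values for 23178 of 35275 entries; 2231 had reads in 1 library only and 9866 were 0 throughout. Implied gene lengths came within 0.001 base of a whole number in 99.98% of the 11248 entries examined. With 1 library a group no count model or test was run. A gene was measured where it reached 1 FPKM in at least 1 of the libraries compared and called at a 2-fold difference of log2(FPKM+1), a scale that understates the change of low genes. Ratios of FPKM carry exact 95% binomial intervals and levels exact Poisson intervals from the reads (SciPy 1.17.1, Python 3.11.15); the floor for 0 reads was 3 reads. Recovery and calls were checked on simulated data. Alternatives were a pseudocount of 0.1, median-of-ratios scaling, a minimum of 5 FPKM and no minimum, and a ratio with 1 added to each level. No pairing of samples is given.

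All 35 genes are named. Values are printed for those past 2-fold, for paralog pairs whose ratio changed by 2-fold, and for the widest and narrowest ranges. The genes, the other lists, the motifs and the promoters shown were chosen with earlier results of these data known. Of the 35 genes, 19 overlap another annotated gene, 4 of them a coding gene. No promoter of Smarce1, Ss18, Chd3, Chd7, Chd1, Mta3, Mbd2 or Arid2 was matched.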

Additional observations from a re-analysis of the deposited data

How the results depend on the processing

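Adding 0.1 in place of 1 before taking logs moved 8 of 30 counts and left 22 within 1.5 times. The counts became 2 higher in Opt. VPA cells against control cells (Dpf1 and Chaf1b), 1 lower in day 6 against N2B27 cells (Dpf1), 1 higher in day 6 against FBS/KSR cells (Dpf3), 1 higher (Dpf1) and 1 lower (Smarcd3) in day 15 against day 6, 2 lower in day 21 against day 15 (Smarca2 and Dpf3), and 2 higher (Dpf1 and Chaf1a) and 2 lower (Smarca2 and Smarcd3) in CiPSCs against day 21. Median-of-ratios scaling moved 5 of 30. They were 0 higher and 1 lower (Smarcd3) in Opt. VPA cells against control cells, 1 lower in day 15 against day 6 (Smarcd3), 1 higher in day 21 against day 15 (Chaf1b) and 4 higher in CiPSCs against day 21 (Actl6a, Dpf1, Mbd3 and Chaf1a). A minimum of 5 FPKM moved 1, to 0 higher in Zscan4c+ against Zscan4c- cells, since Dpf3 is below it. No minimum moved none of the 30. Adding 1 to both levels moved 18 of 186 paralog ratios beyond their counting interval. The comparison without the Zscan4c reporter pair was chosen after seeing the data. No paired analysis was possible because each group has 1 library. With 1 library a group the counting intervals say nothing of the spread between cultures, which limits all differences here, and the calls for Dpf3 rest on at most 38 reads.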
